A study of Rattus norvegicus with 14 samples.

Results

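The let-7 family guide arms in rat pup serum are the 5p mature strands of let-7a, let-7b, let-7c, let-7d, let-7e, let-7f, let-7g and let-7i and of miR-98. They were taken by name from a deposited table of 375 mature rat miRNAs, leaving out the 3p passenger arms. Of the 9 names, 8 were found and all 8 passed the filter on low counts; let-7g-5p was not analysed here. Serum was profiled by small RNA sequencing from female Long Evans rats on postnatal day 8. The 8 Control libraries came from pups whose dams drank water with 0 ppm of PTU, and the labels call these pups euthyroid. The 6 PTU libraries came from pups whose dams drank water with 3 ppm of PTU (propylthiouracil, which inhibits the making of thyroid hormone) through pregnancy or lactation, and the labels call these pups hypothyroid and their dams mildly hypothyroid. 1 pup was taken from each litter. Replicates are therefore different animals, and all results refer to females only.

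let-7 was among the first miRNAs discovered, as a timing gene of larval development in the nematode Caenorhabditis elegans, and its mature strand is nearly the same in worms and mammals. A miRNA guide strand sits in an Argonaute protein and pairs with messenger RNAs mainly through its seed, bases 2 to 8 from the 5′ end; the passenger strand of the hairpin is mostly degraded. In mammals let-7 levels are held down in early embryonic cells by the RNA-binding proteins LIN28A and LIN28B, which block maturation of let-7 precursors, and they rise as tissues differentiate. Known mammalian targets include Hmga2, Lin28b and Ras genes. Guide arms of this family circulate in blood in vesicles and protein complexes.

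The mature sequences are printed because the whole family shares its seed and single members are told apart by very few bases. In each line, 5′ to 3′ from RefSeq on the rat assembly GRCr8, the seed is in capitals.
let-7a-5p: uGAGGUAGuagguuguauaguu
let-7c-5p: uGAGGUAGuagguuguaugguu
let-7b-5p: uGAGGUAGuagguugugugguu
let-7f-5p: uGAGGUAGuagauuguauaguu
let-7e-5p: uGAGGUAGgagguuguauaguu
let-7d-5p: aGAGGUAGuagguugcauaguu
miR-98-5p: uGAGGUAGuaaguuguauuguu
let-7i-5p: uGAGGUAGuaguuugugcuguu

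All 8 analysed guide arms were 22 bases long and carried the seed GAGGUAG, and 0 of the 335 other listed miRNAs with a sequence in RefSeq did; another 32 had no matching name there and were not checked. Counted from the 5′ end with let-7a-5p as the reference, let-7c-5p differed by A19G, let-7f-5p by G12A and let-7e-5p by U9G. let-7b-5p carried A17G and A19G, let-7d-5p U1A and U16C, and miR-98-5p G11A and A19U. let-7i-5p was the most distant, with 4 differences (G12U, A17G, U18C and A19U). let-7b-5p and let-7c-5p are thus 1 base apart and share the G at position 19. A sequencing or mapping error at 1 position could move reads between such neighbours, so the division of counts among them is uncertain; the sources used here do not say how the authors' counter treated mismatches.

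Several members come from more than 1 gene. In RefSeq, let-7a-5p, let-7c-5p and let-7f-5p each have 2 rat precursors and the other 5 have 1 each, so the counts of the former cannot be assigned to a locus. The precursors lie in groups: Mirlet7c2 and Mirlet7b are direct neighbours, Mirlet7f2 and Mir98 are direct neighbours, and Mirlet7a1, Mirlet7f-1os and Mirlet7d (of let-7a, let-7f and let-7d) form another group. Mirlet7e is the direct neighbour of Mir125a and Mirlet7a-2 is close to Mir100.

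Counts summed over the listed miRNAs ran from 452961 to 2119979 per library, and the guide arms together took 53794 to 183287 of these. A count of 3, the floor used here, was worth 1.44 to 6.38 CPM (counts scaled to effective library size with TMM, edgeR's trimmed mean normalization), and the scarcest member, miR-98-5p, had 65 to 272 counts. PTU replicates 3 and 6 stood apart from the rest in some of the values below, and some of these values are also given without 1 of them.

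The family was one of the large components of the serum profile. Control libraries gave it 9.82% ± 1.81 of all counts (SD, n = 8), and PTU libraries 8.93% ± 0.713 (SD, n = 6). By library this share was lowest at 6.48%, had a median of 10.3% and reached 11.9% in Control serum, and in PTU serum the lowest, median and highest were 8.04%, 8.88% and 10.1%. The PTU libraries thus lay inside the Control range, all 6 of them below the Control median. A total over members was not tested.

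let-7c-5p was by far the most abundant member, ranking 5 among the 357 miRNAs tested, followed by let-7b-5p at rank 7. let-7c-5p held 52.1% ± 1.64 of the family's counts in Control serum (SD, n = 8) and let-7b-5p 25.7% ± 1.98. The next members lay close together: let-7i-5p at rank 16, let-7a-5p at 19 and let-7f-5p at 22, with Control means of 7717 ± 779, 6735 ± 1182 and 5715 ± 829 CPM (SD, n = 8). let-7d-5p at rank 77 and let-7e-5p at rank 87 followed with 894 ± 153 and 781 ± 114 CPM, and miR-98-5p at rank 193 had 130.0 ± 27.0 CPM. Since all are of 1 length, CPM levels can be set side by side, although ligation and amplification may favour some sequences.

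Some steps in this order were firm and others were not. let-7c-5p exceeded let-7b-5p in 14 of 14 libraries, let-7b-5p exceeded let-7i-5p in 14, let-7f-5p exceeded let-7d-5p in 14, and let-7e-5p exceeded miR-98-5p in 14. let-7i-5p exceeded let-7a-5p in only 10 of 14, let-7a-5p exceeded let-7f-5p in 11 and let-7d-5p exceeded let-7e-5p in 12. The middle neighbours were therefore not ordered beyond the spread between libraries.

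**Figure D1:**
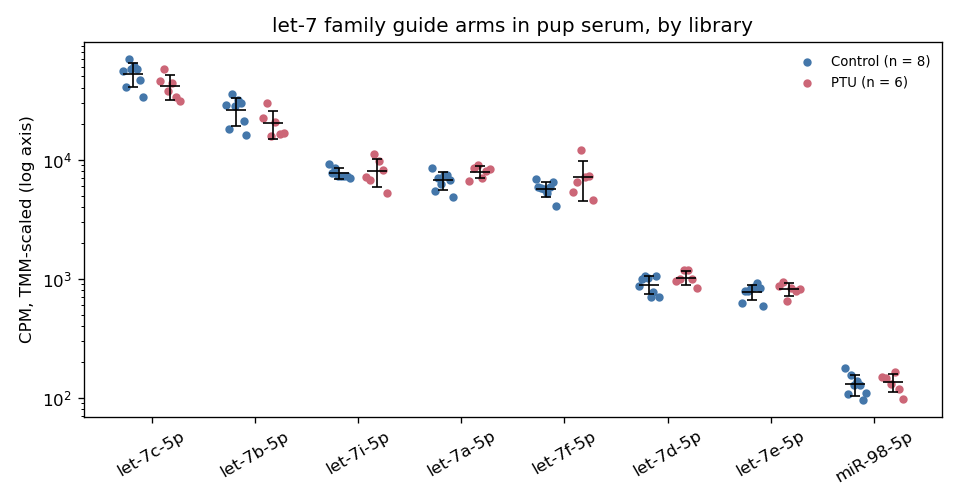
Level of each let-7 guide arm in every library as TMM-scaled CPM on a log axis; points are libraries (blue, Control, n = 8; red, PTU, n = 6) and black bars the mean ± SD. let-7c-5p and let-7b-5p stand above the rest, and PTU replicate 3 is the highest let-7f-5p point at 12080 CPM.

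Spread between pups was far above counting error for the abundant members. In Control serum the coefficient of variation was 22.2% for let-7c-5p, where the smallest count of 28700 gives a counting error of 0.59%, and 10.1% for let-7i-5p. For miR-98-5p it was 20.8%, with a counting error of 12.4% at its smallest count. The PTU group had a wider spread for let-7f-5p (36.6% against 14.5%) and let-7i-5p (27.1% against 10.1%). Without PTU replicate 3 the PTU values were 18.7% and 23.0%; these differences in spread were not tested. The counting errors given here take each count as independent. If reads rather than molecules were counted they are too small, since reads amplified by PCR are not independent molecules.

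PTU serum was compared with Control serum to ask which guide arms differ in hypothyroid pups, and no guide arm passed the adjusted threshold. let-7b-5p and let-7c-5p, the most abundant pair, had lower PTU means, while let-7a-5p, let-7f-5p and let-7d-5p had higher ones and let-7i-5p, let-7e-5p and miR-98-5p were close to even. At a false discovery rate of 0.05 by edgeR's quasi-likelihood test, 0 of 8 members were called, beside 0% of all 357 miRNAs tested. At an unadjusted p under 0.05 there were also 0 of 8, beside 13.2% of all miRNAs. This count was 1 with RLE factors, beside 47 of all 357 miRNAs. It was 2 with upper-quartile factors (let-7b-5p and let-7c-5p, beside 51 of 357) or no factors (let-7a-5p and let-7f-5p, beside 53 of 357). Leaving out Control replicate 2, Control replicate 8 or PTU replicate 2 gave 2 (let-7b-5p and let-7c-5p). Leaving out Control replicate 1, PTU replicate 1 or PTU replicate 6 gave 1, and leaving out any other library gave 0. In these fits 41 to 54 of the 355 to 360 miRNAs tested had an unadjusted p under 0.05. DESeq2 and limma-voom likewise called 0 members. In none of the 8 were the groups separated, beside 0.56% of all miRNAs. Of the members, 6 of 8 had a log2 fold change above 0, with a median of 0.06, beside 57.7% of all miRNAs and a median of 0.03. The median of the members ranged from 0.02 when Control replicate 8 was left out to 0.12 when PTU replicate 6 was, and became -0.04, with 3 of 8 above 0, under upper-quartile factors, which moved the median of all miRNAs to -0.08. Because serum is a mixture, release from fewer cells and less release per cell cannot be told apart in any of these values.

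let-7c-5p ran from 33299 to 69518 CPM in Control serum with a median of 56382, and from 31074 to 58057 CPM in PTU serum with a median of 41111. PTU replicate 2 was the single PTU library above the Control median, and PTU replicate 6 was below every Control library. The means were 52822 ± 11717 CPM (SD, n = 8) and 41794 ± 9846 CPM (SD, n = 6), which gave a fitted log2 fold change of -0.34 ± 0.17 (SE), with 95% limits of -0.70 and 0.02 and an adjusted p of 0.420 by edgeR. let-7b-5p followed the same course. Its lowest, median and highest values were 16078, 28500 and 35489 CPM in Control serum and 15662, 18761 and 29828 CPM in PTU serum, with PTU replicate 2 again the only PTU library above the Control median. The fitted difference was -0.37 ± 0.19 on the log2 scale (SE), with 95% limits of -0.77 and 0.03 and an adjusted p of 0.422 by edgeR. Without PTU replicate 2 the values were -0.46 for let-7c-5p and -0.51 for let-7b-5p, with an adjusted p of 0.225 for each by edgeR.

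Red cell markers also had higher PTU means. The log2 ratio of miR-451-5p, made in red cells, to miR-23a-3p averaged 0.12 ± 0.57 in Control serum (SD, n = 8) and 0.87 ± 0.78 in PTU serum (SD, n = 6). With this ratio as a covariate the log2 fold changes were -0.19 for both let-7c-5p and let-7b-5p, 0.27 for let-7a-5p, 0.23 for let-7f-5p, 0.13 for let-7d-5p and 0.22 for let-7e-5p. The ratio itself differed by group, with 4 of 6 PTU libraries above every Control library. The covariate can therefore also take up part of a PTU difference, and the shares of red cell RNA and PTU in these values cannot be told apart. Of the 7 red cell marker names 6 were found, none of them at 0 in any library, and their summed level ran from 82371 to 134826 CPM in Control and from 68033 to 159520 CPM in PTU serum. That sum is led by miR-16-5p, with a mean of 94756 CPM over the 14 libraries and a log2 fold change of 0.08. All 6 had a log2 fold change above 0, with a median of 0.87, beside 57.7% of all miRNAs and a median of 0.03. None of the 6 passed the false discovery rate of 0.05, beside 0% of all miRNAs, and their lowest adjusted p was 0.179 by edgeR. Markers of striated muscle (4 of 4 found, none at 0) summed to 412786 to 549341 CPM in Control and 353898 to 590331 CPM in PTU serum. The means were 487929 and 439059 CPM, and 3 PTU libraries were below every Control library and 1 above. This sum is led by miR-206-3p, with a mean of 376051 CPM over the 14 libraries and a log2 fold change of -0.10. Of the 4, 3 had a log2 fold change below 0 and 1 above, with a median of -0.16. At an unadjusted p under 0.05 by edgeR there was 1 (miR-1-3p, -0.43), beside 13.2% of all miRNAs. The part of muscle RNA in the let-7 values was not tested.

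let-7a-5p, made from 2 genes, had a higher PTU mean. Its lowest, median and highest values were 4877, 6902 and 8574 CPM in Control serum and 6563, 8182 and 9058 CPM in PTU serum, and 5 of 6 PTU libraries were above the Control median. The fitted log2 fold change was 0.23 ± 0.13 (SE), with 95% limits of -0.05 and 0.51 and an adjusted p of 0.452 by edgeR, and the value was 0.12 with upper-quartile factors. let-7f-5p, 1 base away from it, ran from 4048 to 6820 CPM around a median of 5817 in Control serum and from 4571 to 12080 CPM around a median of 6818 in PTU serum. Its log2 fold change, 0.33 ± 0.18 (SE) with an adjusted p of 0.452 by edgeR, rested largely on PTU replicate 3, at 12080 CPM where the next PTU library had 7267 CPM. Without that library the value was 0.11. let-7d-5p, whose precursor lies beside those of let-7a and let-7f, had lowest, median and highest values of 697, 930 and 1053 CPM in Control and 839, 998 and 1181 CPM in PTU serum. Its log2 fold change was 0.20 ± 0.14 (SE; adjusted p = 0.535, edgeR), and 0.09 with upper-quartile factors.

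The 3 remaining members differed little in the mean. let-7i-5p, encoded by 1 gene, had the narrowest Control group, from 7000 to 9226 CPM, and a PTU group that reached past it on both sides, from 5203 CPM in replicate 6 to 11204 CPM in replicate 3. Its log2 fold change was 0.06 ± 0.15 (SE), with 95% limits of -0.26 and 0.37, and it was -0.06 without PTU replicate 3, -0.09 when the red cell ratio was a covariate and -0.04 with upper-quartile factors. let-7e-5p ran from 590 to 920 CPM in Control and from 648 to 944 CPM in PTU serum, a log2 fold change of 0.06 ± 0.13 (SE). Without Control replicate 8, which had the lowest level of this miRNA, it was 0.0065, with upper-quartile factors it was -0.05, and with the red cell covariate it was 0.22. miR-98-5p, whose gene is the neighbour of 1 of the let-7f genes, ran from 96.6 to 178 CPM in Control and from 98.0 to 164 CPM in PTU serum. Its log2 fold change was 0.06 ± 0.17 (SE), 0.01 without Control replicate 2 and 0.13 without Control replicate 1, and it was -0.05 with upper-quartile factors.

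The authors' deposited table gives the same directions. In the authors' deposited table the log2 fold changes were -0.37 for let-7b-5p, -0.33 for let-7c-5p, 0.34 for let-7f-5p, 0.25 for let-7a-5p and 0.21 for let-7d-5p. The FDR of the 8 guide arms in the authors' deposited table ran from 0.497 to 0.970, so 0 of 8 were below 0.05 there, beside 0.8% of all miRNAs listed.

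The mixture of the family was then compared within libraries, where shares and ratios of members do not depend on the scaling. The mean shares of let-7b-5p and let-7c-5p were lower in PTU serum and those of the other 6 members were higher. Shares within a library add to a fixed total, so lower shares of the abundant pair raise the others, and these are not separate observations. let-7b-5p and let-7c-5p together made up 77.7% ± 3.27 of the guide arm counts in Control serum (SD, n = 8) and 70.7% ± 6.45 in PTU serum (SD, n = 6). The lowest, median and highest shares were 73.9%, 78.0% and 81.8% in Control and 61.0%, 71.0% and 78.6% in PTU serum. PTU replicates 3, 4, 5 and 6 lay below every Control library, whereas PTU replicates 1 and 2 lay inside the Control range. let-7a-5p made up 6.74% ± 0.776 of the family in Control serum (SD, n = 8) and 9.32% ± 2.06 in PTU serum (SD, n = 6). All 6 PTU libraries were above the Control median for this share, and 3 were above the highest Control library.

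The ratio of let-7a-5p to let-7c-5p, which differ by A19G, also differed in the mean. let-7c-5p had 7.84 ± 1.18 times the counts of let-7a-5p in Control serum (SD, n = 8) and 5.37 ± 1.49 times in PTU serum (SD, n = 6). The log2 ratio of let-7a-5p to let-7c-5p was -2.80, -2.76, -2.06, -2.67, -2.07 and -1.90 in PTU replicates 1 to 6, against a Control range of -3.30 to -2.69 with a median of -2.94. PTU replicates 3 to 6 exceeded every Control library, by little in replicate 4, and replicates 1 and 2 did not, so the groups overlapped. The mean difference of 0.58 was larger than the SD within either group (0.21 in Control and 0.41 in PTU). It was not particular to this pair. The mean log2 ratio of let-7c-5p, PTU minus Control, was -0.54 to let-7d-5p, -0.41 to let-7e-5p, -0.39 to miR-98-5p and -0.36 to let-7i-5p. The SD within groups was 0.36, 0.28, 0.23 and 0.40. In the quasi-likelihood fits the log2 fold changes of let-7a-5p and let-7c-5p were 0.57 apart. This gap was 0.51, 0.52 and 0.49 without PTU replicate 3, 5 or 6, and 0.46 when the red cell ratio was a covariate.

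The other pairs of members 1 base apart had mean ratios that differed by less than the spread between libraries. let-7b-5p and let-7c-5p, 1 base apart (G17A), had a log2 ratio of -1.02 ± 0.09 in Control serum (SD, n = 8) and -1.05 ± 0.13 in PTU serum (SD, n = 6), which is 2.04 ± 0.132 and 2.07 ± 0.191 counts of let-7c-5p for each of let-7b-5p. let-7a-5p and let-7f-5p (G12A) had a log2 ratio of 0.23 ± 0.19 in Control and 0.21 ± 0.43 in PTU serum. In this pair PTU replicates 3 and 6 were the extremes, at -0.42 and 0.87, and without PTU replicate 3 the PTU mean was 0.33 ± 0.34. let-7a-5p to let-7e-5p (U9G) gave 3.10 ± 0.29 and 3.28 ± 0.31. let-7d-5p and let-7a-5p, which share a precursor group, had -2.91 ± 0.36 and -2.95 ± 0.26. let-7f-5p to let-7c-5p, in contrast, gave -3.19 ± 0.30 in Control and -2.58 ± 0.57 in PTU serum, with PTU replicates 3 to 6 above every Control library. Without PTU replicate 3 the PTU mean was -2.77 ± 0.38.

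**Figure D2:**
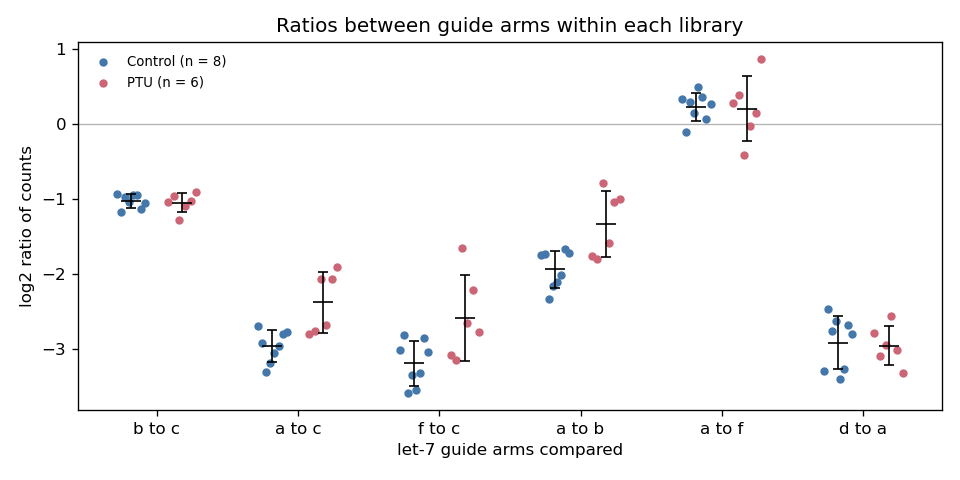
log2 ratio of counts between pairs of let-7 guide arms within each library (blue, Control, n = 8; red, PTU, n = 6; black bars, mean ± SD). The ratio of b to c is tight near -1 in both groups, whereas in the a to c, f to c and a to b ratios 4 of 6 PTU libraries lie above all Control libraries.

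Each member was also tested relative to the family, with the summed guide arms as library size in the fit over all 357 miRNAs. The log2 fold changes were then 0.47 ± 0.16 (SE) for let-7a-5p, with an unadjusted p of 0.00833 and an adjusted p of 0.155 by edgeR, and 0.52 ± 0.20 for let-7f-5p (adjusted p = 0.213, edgeR). Without PTU replicate 3 they were 0.44 ± 0.17 and 0.32 ± 0.18 (adjusted p = 0.193 and 0.356, edgeR). let-7d-5p had 0.38 ± 0.20, miR-98-5p 0.25 ± 0.17, let-7e-5p 0.27 ± 0.19 and let-7i-5p 0.24 ± 0.19 (0.13 without PTU replicate 3). This scale put the median of all 357 miRNAs at 0.22 in place of 0.03, and miR-98-5p, let-7e-5p and let-7i-5p lay near that median. A value above 0 here is therefore not particular to these members. let-7c-5p and let-7b-5p, which make up most of the divisor, had -0.13 ± 0.10 and -0.15 ± 0.13. On this scale, with all 14 libraries, 2 of 8 members had an unadjusted p under 0.05 by edgeR, beside 15.4% of all miRNAs. None passed the false discovery rate, beside 0% of all miRNAs in each direction. Without PTU replicate 3 the unadjusted count was 1 of 8, and the share over all miRNAs was not computed for that fit. The difference in mixture therefore did not pass the adjusted threshold for any member.

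**Figure D3:**
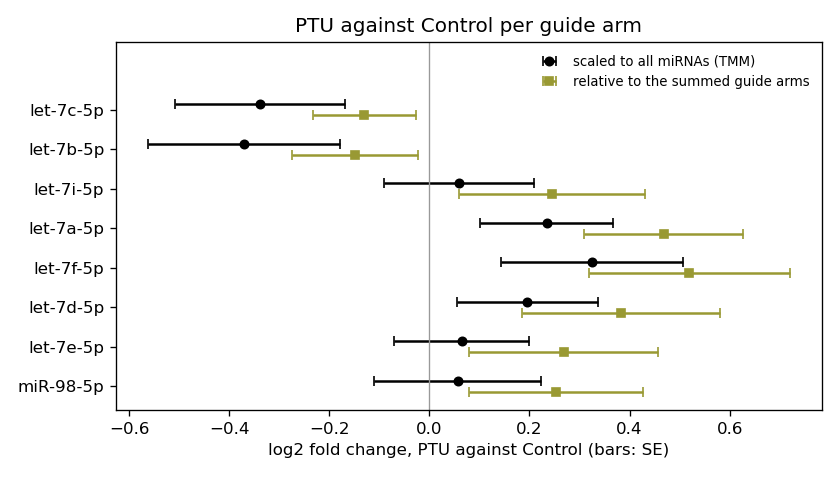
log2 fold change of PTU against Control for each guide arm with its SE, scaled to all miRNAs (black circles) or relative to the summed guide arms (olive squares). let-7c-5p and let-7b-5p lie below 0 and let-7a-5p, let-7f-5p and let-7d-5p above 0 on both scales. The median of all miRNAs was 0.03 on the first scale and 0.22 on the second. No value passed the adjusted threshold.

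Likeness between miRNAs was measured as the SD over the 14 libraries of the log2 ratio of their CPM, where a small SD means a near constant ratio. It is a description that favours abundant miRNAs with little spread and carries no test. Over the 28 pairs of guide arms it had a median of 0.34, and the closest pair by far was let-7b-5p with let-7c-5p at 0.11. The second closest was let-7i-5p with let-7f-5p at 0.23, followed by let-7i-5p with let-7d-5p at 0.24. The least alike were let-7b-5p and let-7f-5p at 0.59. let-7a-5p and let-7c-5p, though 1 base apart, had 0.42.

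**Figure D4:**
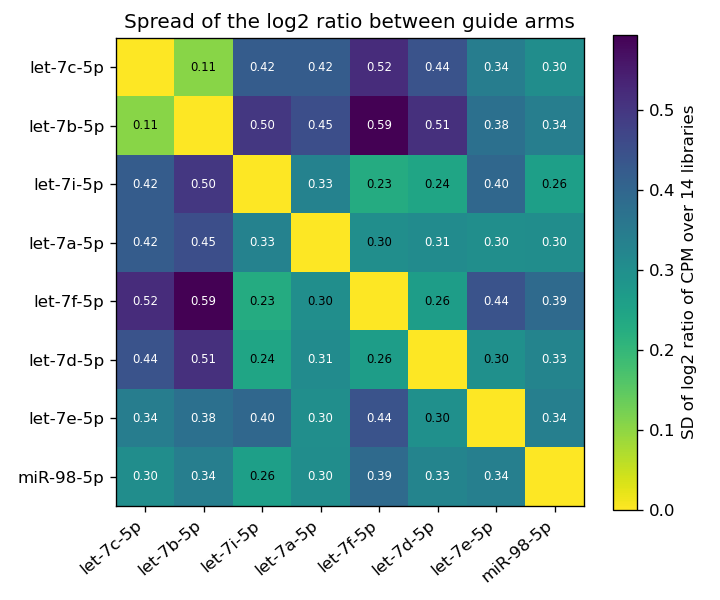
SD over 14 libraries of the log2 ratio of CPM for each pair of let-7 guide arms, members ordered by abundance; yellow marks a near constant ratio. let-7b-5p with let-7c-5p (0.11) is the tightest pair and let-7b-5p with let-7f-5p (0.59) the loosest.

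Outside the guide arms, the miRNA most like both let-7b-5p and let-7c-5p was let-7d-3p, the passenger arm of let-7d. The SD of its log2 ratio was 0.15 to let-7b-5p and 0.19 to let-7c-5p, where the median over all other tested miRNAs was 0.57 and 0.53. The next were miR-503-3p (0.25 and 0.24), then miR-342-3p at 0.28 for let-7b-5p and miR-339-5p at 0.26 for let-7c-5p. let-7i-5p had other neighbours, namely miR-30e-3p (0.16), miR-872-5p (0.19) and miR-17-5p (0.19). let-7d-3p held a steadier ratio to let-7b-5p than to the guide of its own hairpin: let-7b-5p had 91.0 to 119 counts for each count of let-7d-3p in Control serum and 81.7 to 95.6 in PTU serum, whereas let-7d-5p had 2.00 to 6.21 in Control and 3.22 to 6.95 in PTU serum.

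The passenger arms were scarce apart from that of let-7d. Of 12 names 6 were found and tested. The log2 fold change was below 0 for 5 of these and above 0 for 1, with a median log2 fold change of -0.23. None passed the false discovery rate by edgeR, and 2 of 6 had an unadjusted p under 0.05, beside 13.2% of all miRNAs. These were let-7a-1-3p and let-7c-1-3p, at log2 fold changes of -0.57 ± 0.22 and -0.65 ± 0.28 (SE; adjusted p = 0.258 and 0.289, edgeR). let-7a-1-3p had 12.2 to 28.0 CPM in Control and 10.5 to 17.7 CPM in PTU serum, with counts of 6 to 37 per library, and 0 of 6 PTU libraries were above the Control median. let-7c-1-3p had 4 to 22 counts per library and likewise 0 of 6 PTU libraries above the Control median.

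let-7a-1-3p and let-7c-2-3p have the same mature sequence in RefSeq on GRCr8, printed here because the deposited table lists them apart.
let-7a-1-3p: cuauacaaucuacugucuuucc
let-7c-2-3p: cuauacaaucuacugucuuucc

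The table gives let-7a-1-3p 263 counts and let-7c-2-3p 221 counts over all libraries, and their log2 ratio by library ran from -0.45 to 1.14. The sources used here do not say how reads of this sequence were divided, so neither value can be read as that of 1 hairpin. Summed into 1 row, a step added after the data were seen, they had a log2 fold change of -0.42 ± 0.21 (SE; unadjusted p = 0.0579 and adjusted p = 0.382, edgeR).

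Guide to passenger ratios differed widely between hairpins with both arms listed and a single gene. The log2 ratio of let-7i-5p to let-7i-3p was 9.65 ± 0.47 in Control and 9.64 ± 0.70 in PTU serum. For let-7e it was 6.79 ± 1.05 and 6.61 ± 0.30, and for let-7d 1.84 ± 0.53 and 2.21 ± 0.38 (SD, n = 8 and n = 6). let-7d-3p, at 256 ± 70.8 CPM in Control serum (SD, n = 8) and 225 ± 54.5 CPM in PTU serum (SD, n = 6), was the most abundant of the 6 passenger arms. In none of the 3 hairpins did the group means differ by more than the SD of the Control libraries. let-7e-3p and let-7i-3p had as few as 1 and 5 counts in a library, which limits these ratios.

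The guide arms of miR-99, miR-100 and miR-125, some of whose genes neighbour let-7 genes, also gave 0 of 5 past the false discovery rate by edgeR, beside 0% of all miRNAs, and 0 of 5 at an unadjusted p under 0.05, beside 13.2%. Of the 5, 4 had a log2 fold change above 0, beside 57.7% of all miRNAs, with a median of 0.14. The most abundant were miR-125b-5p, the mammalian relative of the worm timing miRNA lin-4, at 0.07 ± 0.20, and miR-125a-5p, the neighbour of let-7e, at 0.14 ± 0.24 (SE). Control means were 9594 ± 2399 and 4144 ± 1275 CPM (SD, n = 8), and PTU means 10098 ± 2956 and 4555 ± 1651 CPM (SD, n = 6).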

How the data were processed

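The deposited table holds raw counts per mature miRNA for all 14 libraries, which the authors left as whole numbers. Per the file headers, the authors' columns also give a log2 fold change, log2 CPM, p-value and FDR for each miRNA; the group means they deposited are plain means of counts, a linear signal. Per the labels' protocols, RNA came from a serum and plasma kit and libraries from a QIAseq miRNA kit after 22 PCR cycles. The submitters' processing notes name edgeR. The sources used here do not say whether molecules or reads were counted, nor give an aligner or build.

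Sample titles carry the identifiers of the count columns, and all matched. The test was edgeR 4.0.16 (R 4.3.3) with filterByExpr (357 kept, 18 left out), TMM and the quasi-likelihood test of PTU against Control over 14 libraries with no covariate. P-values were adjusted by Benjamini-Hochberg over 357 miRNAs, with a threshold of 0.05. SE was taken from the F statistic. log2 CPM used a prior count of 2. As a check for libraries deposited more than once, chi-square per degree of freedom between libraries of a group was computed; it was at least 21.7, so none was merged. The fit was tested on simulated data. Alternatives were other scalings and filters, DESeq2 1.42.0, limma-voom (limma 3.58.1), a red cell covariate, a replicate block and each library left out.

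Members and lists were chosen with earlier results of these data known. All members are named. Of the passenger arms and of the miR-99, miR-100 and miR-125 guide arms, those at an unadjusted p under 0.05 or else the 2 most abundant are named. For likeness these are the 3 nearest miRNAs of the 3 most abundant members. Red cell, muscle and leukocyte markers are given mainly as sums, and platelet and endothelial, liver and brain markers are not described. Markers at an unadjusted p under 0.05 are therefore not all named. The let-7d hairpin, the ratios of f to c, a to b and d to a, those of let-7c-5p to let-7d-5p, let-7e-5p, miR-98-5p and let-7i-5p, and the identical arms were chosen after values were seen. Sequences are from RefSeq (GRCr8): 9 of 9 guide names and 5 of the 6 passenger arms matched.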

Additional observations from a re-analysis of the deposited data

Results flagged for a closer look

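let-7f-5p in PTU replicate 3 stood at 12080 CPM, far from the other 5 PTU libraries, of which the highest had 7267 CPM; the gap was 0.641 of the group's range. Among 34 groups of values examined in this way it was the only one that stood apart. Chance alone would flag about 1 in 20 such groups, so 1 among 34 is no more than chance would give. The groups are not independent, since CPM and family share of the same members were both examined. In the same library let-7i-5p was the highest of all 14 at 11204 CPM and let-7b-5p was the lowest at 15662 CPM. The 5 leukocyte markers there summed to 18246 CPM, above the Control range of 7085 to 10761 CPM, as was PTU replicate 5 at 11640 CPM. These markers did not share a direction over the groups. Their log2 fold change was above 0 for 2 and below 0 for 3, with a median of -0.13, beside 57.7% of all miRNAs above 0. The part of leukocyte or red cell RNA in the let-7f-5p value was not tested.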

How the results depend on the processing

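No guide arm passed the false discovery rate of 0.05 under any of the 11 alternatives with all or most libraries or with any 1 of 14 libraries left out; the lowest adjusted p of a member was 0.155, for let-7a-5p relative to the summed guide arms (edgeR). Over all miRNAs, DESeq2 called 1 higher in PTU, and the number called lower ran from 0 to 1 over single libraries left out, with 1 without PTU replicate 5. Of 88 member values under the 11 alternatives 81 kept their direction and 7 reversed. With upper-quartile factors, which put the median of all miRNAs at -0.08 in place of 0.03, let-7e-5p had -0.049, let-7i-5p -0.0409 and miR-98-5p -0.0487; with no factors that median was 0.12. let-7i-5p had -0.0928 with the red cell covariate. Of 112 values with 1 library left out 111 kept their direction; let-7i-5p ran from -0.0631 to 0.131. The summed share differed by -0.893 percentage points, and by -1.37 to -0.600 with 1 library left out.

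Control and PTU libraries share replicate numbers 1 to 6, but the labels do not say that a number pairs pups. The correlation of deviations of same-numbered libraries ran from -0.249 to 0.287, and 1 of 6 was highest with its own number, so no pairing was used. With the replicate block, on 12 libraries, 0 miRNAs were called. Of the 8 guide arms 2 had an unadjusted p under 0.05, beside 27 of 352 miRNAs tested. Without the block on the same 12 libraries, a setting added after the data were seen, it was again 2, beside 35 of 352. let-7i-5p had -0.0149 and miR-98-5p -0.0437 with the block, and miR-98-5p had -0.05004 without it on these 12 libraries. The block changed no call. Low counts limit the precision of miR-98-5p and the passenger arms more than that of the abundant guide arms. Whether the mixture of the family follows depth was not tested. PTU replicate 3 had the most counts of all libraries, 2119979, and the highest let-7f-5p share of the family, 13.75%. Control replicate 2 had the most counts of the Control libraries, 1935825, and the highest such share among them, 7.32%.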
